A study of Mus musculus with 7 samples.

Results

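The miR-216 and miR-217 cluster is a group of 3 neighbouring microRNA hairpins, Mir216b, Mir216a and Mir217, that gave 6 mature miRNAs in these small RNA libraries: mmu-miR-216b-5p, mmu-miR-216b-3p, mmu-miR-216a-5p, mmu-miR-216a-3p, mmu-miR-217-5p and mmu-miR-217-3p (mmu, for mouse, is left out of most names here). These are 6 of the 1908 mature miRNA rows measured. They were picked by name because the E12.5 V2a interneuron library held several-fold more of them than the other 2 E12.5 libraries, so the E12.5 levels are given as a description and carry no test. The label "V2a-high", read as at least 4-fold over both, held for the 4 of the 6 rows that reached 10 TPM. miR-217-3p was lower in V2a cells than in motoneurons. miR-216b-3p was scarce and, as listed, highest in V2a, but shared its reads with a row of the opposite strand.

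The 7 libraries came from mouse embryonic spinal cord, dissociated and sorted by fluorescence. At E10.5, Hb9::gfp embryos gave 2 libraries of GFP-positive motoneurons and 2 of GFP-negative spinal cells, a mixed fraction. At E12.5 there was 1 library each of GFP-positive motoneurons (Hb9::gfp), tdTomato-positive V2a interneurons (Chx10::cre;Rosa26::LSL::tdTomato) and tdTomato-positive V3 interneurons (Sim1::cre;Rosa26::LSL::tdTomato). GFP marks cells in which the Hb9 promoter is active, while the Cre-dependent tdTomato stays on in a Cre-expressing cell and its descendants, so the reporters do not define populations in the same way. Nothing in the labels ties the 2 replicates of a group to different embryos, litters or sorts. The p-values therefore reflect only how far these particular libraries spread, and that spread may be technical. The number of embryos pooled is not in the labels either.

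A miRNA hairpin is cut into a short duplex, of which usually 1 arm, the guide, stays bound to an Argonaute protein while the other, the passenger, is lost. The guide finds messenger RNAs mainly through its seed, bases 2 to 8 from the 5′ end. The miR-216 and miR-217 cluster is best known from the pancreas, where it is abundant in acinar cells. V2a neurons, marked by Chx10, and V3 neurons, marked by Sim1, are excitatory spinal interneurons of the locomotor circuits, and motoneurons carry the output to muscle.

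The mature sequences are shown first because they decide which members can act on the same targets and which rows can share reads. They are those of RefSeq (GRCm38.p6), printed 5′ to 3′ with the seed in capitals, and all 6 members had an entry.
miR-216b-5p: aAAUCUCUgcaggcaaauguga
miR-216a-5p: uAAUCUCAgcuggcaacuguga
miR-217-5p: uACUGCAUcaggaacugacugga
miR-216b-3p: aCACUUACcuguagagauucuu
miR-216a-3p: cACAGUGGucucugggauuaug
miR-217-3p: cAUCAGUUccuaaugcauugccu
The 5p arms of Mir216a and Mir216b were identical at 18 of 22 positions. Counted from the 5′ end of miR-216a-5p, with its base first, the differences were U1A, A8U, U11A and C17A. They thus had bases 2 to 7 in common and differed at base 8, the last of the seed. Among 1679 mature mouse miRNAs in the RefSeq table, no other had the same bases 2 to 8 as any member, and none outside the cluster had bases 2 to 7 of a member. miR-217-5p and the 3p arms each had a seed of their own.

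The hairpins lie on the plus strand of chromosome 11 within 17645 bases (GRCm38.p6), at chr11:28746191-28746276 for Mir216b, chr11:28757012-28757083 for Mir216a and chr11:28763728-28763835 for Mir217. Between Mir216b and Mir216a are 10735 bases, and between Mir216a and Mir217 are 6644. In GENCODE M21 (GRCm38), Mir216a and Mir217 lie in intron 2 of the long noncoding RNA gene Gm12082 and Mir216b lies outside it. RefSeq places Mir216b within the long noncoding RNA gene Mir217hg, and Mir216a and Mir217 outside it. For the deposited values themselves, the sources used here name no genome build. The hairpins are shown with their mature arms in capitals, 5p arm first, to show where each measured row comes from.
Mir216b: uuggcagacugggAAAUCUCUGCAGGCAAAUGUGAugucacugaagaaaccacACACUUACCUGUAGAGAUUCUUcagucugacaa
Mir216a: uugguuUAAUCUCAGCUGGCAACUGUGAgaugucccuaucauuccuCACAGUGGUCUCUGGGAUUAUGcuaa
Mir217: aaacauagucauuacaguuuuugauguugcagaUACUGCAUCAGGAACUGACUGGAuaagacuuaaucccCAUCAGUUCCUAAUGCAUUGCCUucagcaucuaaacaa

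**Figure D1:**
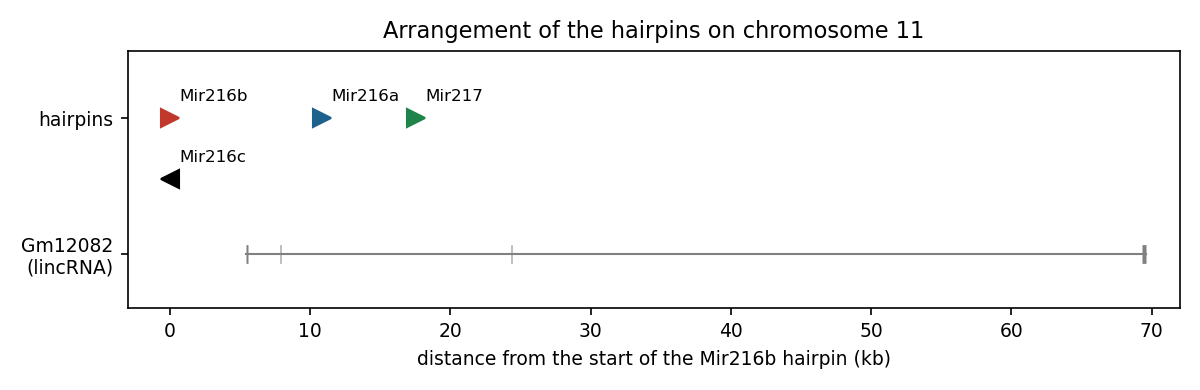
Position of the hairpins (arrowheads, pointing in the direction of their strand and not drawn to the hairpins' size) and of the exons of Gm12082 (grey blocks joined by a line), as distance in kilobases from the start of Mir216b. Mir216c lies on the opposite strand within Mir216b, and Mir216a and Mir217 lie in the same intron of Gm12082.

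A further annotated hairpin, Mir216c, lies on the minus strand at chr11:28746198-28746266, and all 69 of its bases fall within Mir216b. Its 5p arm (gAAGAAUCucuacagguaagugu, seed in capitals) is shown because its reverse complement contains all 22 bases of miR-216b-3p. In the E10.5 table these 2 rows were in 1 bundle, the authors' grouping of rows, and held the same value in every library. Their summed reads were whole numbers, 20 and 17 in the GFP-negative libraries and 31 and 4 in the motoneuron libraries. Reads of this stretch were thus split evenly between the strands at E10.5, and the deposited miR-216b-3p values are the equal shares. miR-216b-5p shared a bundle with miR-216c-3p, which stood at 0.01 RPM or less in all 4 libraries, so its value was hardly touched.

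In the whole series, depth recovered from the values of single reads was 493234 to 802749 reads at E10.5 and about 3603562 to 4605503 at E12.5. The motoneuron labels were checked with miR-218-5p, the motoneuron miRNA that the series is about: E12.5 motoneurons held 104198 TPM of it, V2a cells 7558 and V3 cells 7282. No miRNA is known to define V2a or V3 cells, so those labels rest on the reporters. The 7 pan-neuronal rows came to 14076 TPM in E12.5 motoneurons, 11453 in V2a and 5685 in V3. The 3 neural progenitor rows were abundant, at 75248, 76666 and 165939 TPM in the same order, highest in V3. Of the other cell types, the 10 mesenchymal rows came to 199 (motoneurons), 249 (V2a) and 310 TPM (V3), with 1 or 2 rows at 0 in each library. The 4 muscle rows came to 126, 221 and 63.0 TPM, with 1 at 0 in V2a, the 3 sensory neuron rows to 108, 181 and 193 TPM, and the 3 blood rows to at most 1.91. The 2 endothelial rows came to 177, 405 and 174 TPM, both highest in V2a, and their part in the V2a levels was not tested. The 6 epithelial and endocrine rows summed to 28.5, 46.4 and 295 TPM, with 1 at 0 in V2a and 2 in V3. At E10.5 the mesenchymal rows summed to 81413 and 94290 RPM in GFP-negative cells against 1571 and 424 in motoneurons, the muscle rows to 4192 and 3796 against 355 and 130, and the sensory neuron rows to 9171 and 9535 against 1971 and 2325.

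At E12.5, mmu-miR-216b-5p was the most abundant member. It stood at 4903 TPM (a level per length, scaled so that each library sums to 1000000) in V2a cells, 722 in motoneurons and 495 in V3, from about 22043, 2565 and 2059 reads. It was the 24th most abundant miRNA of the V2a library and the 74th and 84th of the motoneuron and V3 libraries. The V2a level was 6.79-fold that of motoneurons (95% counting interval 6.45 to 7.01) and 9.90-fold that of V3 (9.49 to 10.4). With 1 library a population there is no replicate check, and these intervals, computed on reads, cover counting error only. In these bulk libraries fewer cells with the miRNA and less of it per cell cannot be told apart.

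mmu-miR-217-5p, the more abundant arm of Mir217, followed at 951 TPM in V2a, 207 in motoneurons and 59.8 in V3. Its V2a level was 4.59-fold that of motoneurons (counting interval 4.21 to 4.91) and 15.9-fold that of V3 (14.1 to 18.1), so V3 was the lowest library by far. mmu-miR-216a-3p stood at 529, 126 and 84.2 TPM in the same order, a ratio of 4.21 (3.77 to 4.62) against motoneurons and 6.28 (5.63 to 7.06) against V3. mmu-miR-216a-5p stood at 152, 18.0 and 19.5 TPM, from 683, 64 and 81 reads. Its ratios were 8.44 (6.46 to 10.97) and 7.80 (6.20 to 9.97).

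All of these 4 miRNAs reached 10 TPM in each of the 3 libraries. Each was at least 4-fold higher in V2a than in both other libraries on the scale of TPM + 1, as were 14 of 523 miRNAs that reached 10 TPM in at least 1 library (2.68%). That contrast chose the members, so nothing is read from their count or from their median ratios. Their median log2 ratio was 2.48 over motoneurons and 3.10 over V3, beside 0.16 and 0.48 for all 523. With the libraries scaled by the median of ratios, miR-216a-3p had a log2 ratio of 1.88 over motoneurons, under 4-fold, and the other 3 stayed above it against both.

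**Figure D2:**
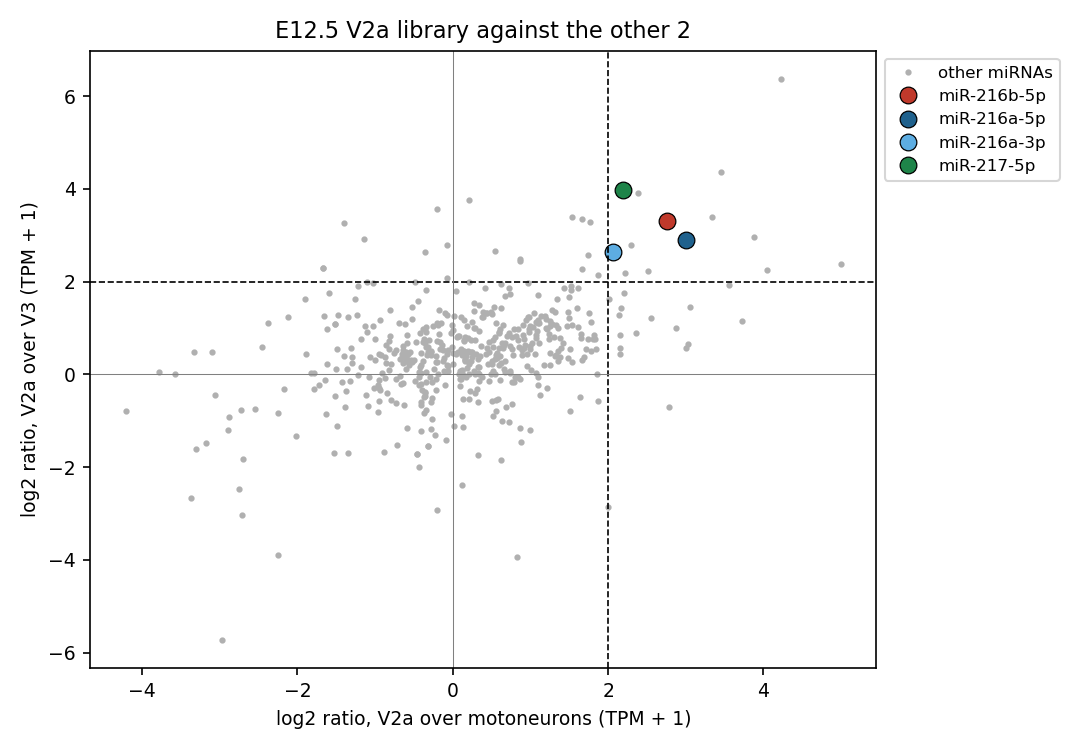
Log2 ratio of V2a over motoneurons (x) and of V2a over V3 (y), both on TPM + 1, for the 523 miRNAs at 10 TPM or more in at least 1 E12.5 library; dashed lines mark 4-fold. The 4 abundant members lie above 4-fold on both axes, among 10 other miRNAs there; of these 4, miR-217-5p is highest against V3 at 3.97 and miR-216a-5p farthest against motoneurons at 3.01.

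Between motoneurons and V3 the members differed among themselves. miR-217-5p was 3.47-fold higher in motoneurons (counting interval 3.05 to 4.05), miR-216a-3p 1.49-fold (1.31 to 1.74) and miR-216b-5p 1.46-fold (1.39 to 1.57). miR-216a-5p had a ratio of 0.92 (0.66 to 1.32), an interval that holds 1, so a difference was not detectable at this depth.

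The rarer arms of Mir217 and Mir216b gave few reads. mmu-miR-217-3p stood at 2.34 TPM in V2a, 6.46 in motoneurons and 0.92 in V3, from 11, 24 and 4 reads. Its V2a level was 0.36 of that of motoneurons (counting interval 0.16 to 0.76), the opposite direction to miR-217-5p from the same hairpin. Against V3 the ratio was 2.54, with an interval of 0.76 to 10.98. mmu-miR-216b-3p was listed at 4.98 TPM in V2a and at 0 in motoneurons and V3. Its antisense row miR-216c-5p was listed at 1.83, 2.42 and 0 TPM. Summed, the 2 rows held 31 reads in V2a, 9 in motoneurons and 0 in V3. The 9 motoneuron reads all stood under miR-216c-5p, so the deposited 0 for miR-216b-3p in motoneurons does not show that reads of this stretch were missing. On the summed reads the V2a level was 2.70-fold that of motoneurons (1.25 to 6.44). It was at least 9.58-fold that of V3 when the 0 reads of V3 are set to a floor of 3 reads, a bound that leaves out the counting error of the V2a reads.

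**Figure D3:**
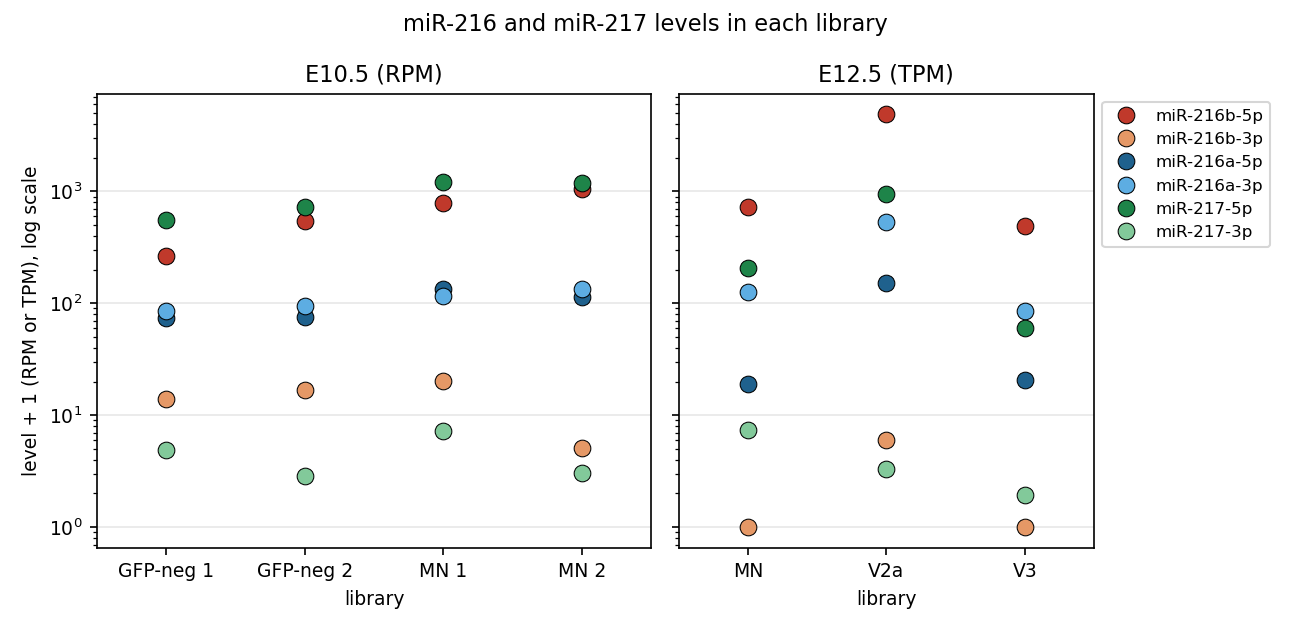
Level of each member plus 1 on a log axis in the 4 E10.5 libraries (RPM, left) and the 3 E12.5 libraries (TPM, right); MN is motoneuron, GFP-neg is GFP-negative, and points at 1 are rows listed at 0. The 2 panels come from tables scaled separately. miR-217-5p is the top point in every E10.5 library and miR-216b-5p in every E12.5 library.

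The stated ground for choosing the members was the E12.5 contrast and not the E10.5 values, though earlier results of these data were known. At E10.5 the cluster was already expressed, and its abundant 5p arms were higher in motoneurons than in GFP-negative cells. miR-217-5p stood at 1223 and 1186 RPM (reads out of 1000000) in the motoneuron libraries and at 558 and 718 in the GFP-negative ones. The groups did not overlap, and their means were 1205 ± 26.3 (SD, n = 2) and 638 ± 113 (SD, n = 2). On log2(RPM + 1) the difference was 0.93 (SE 0.20, adjusted p = 0.00946 by limma). miR-216b-5p stood at 795 and 1046 RPM in motoneurons and 262 and 542 in GFP-negative cells, with means of 920 ± 178 and 402 ± 198 (SD, n = 2 each). The GFP-negative replicates lay more than 2-fold apart, yet both were below the motoneuron libraries. Its log2 fold change was 1.27 (SE 0.35, limma adjusted p = 0.0271).

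Both arms of Mir216a had non-overlapping libraries without passing the test. miR-216a-5p stood at 133 and 114 RPM in motoneurons against 73.3 and 74.3, or 0.73 higher on the log2 scale (SE 0.28, adjusted p = 0.0763 by limma). miR-216a-3p stood at 116 and 134 RPM against 84.9 and 92.8, or 0.48 higher on the log2 scale (SE 0.28, adjusted p = 0.198 by limma). The row of miR-216b-3p held 19.3 and 4.05 RPM in motoneurons and 12.9 and 15.8 in GFP-negative cells. Those groups overlapped, and its log2 fold change was -0.59 (SE 0.69, limma adjusted p = 0.533). miR-217-3p was below the abundance filter of 15.2 RPM in 2 libraries, at 6.23 and 2.03 RPM in motoneurons and 3.86 and 1.86 in GFP-negative cells, which is 1 to 5 reads, and was not tested.

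Of the 5 members tested, 2 were thus called higher and 0 lower, and 3 had an unadjusted p under 0.05. Over all 492 miRNAs tested, 57 were called higher (11.6%) and 151 lower (30.7%). Libraries of the 2 groups did not overlap, with motoneurons higher, for 4 members and for 123 of the 492 miRNAs (25%). Motoneurons were the lower group without overlap for 0 members and for 239 of the 492 (48.6%). The median log2 fold change was 0.73 over the 5 tested members and -0.34 over all 492. That general shift depended on scaling. With the median of ratios, which puts the median of all miRNAs at -0.0038, miR-216a-5p (1.07, limma adjusted p = 0.0179) and miR-216a-3p (0.83, limma adjusted p = 0.0431) were also called higher. That scaling called 94 of all 492 miRNAs higher, against 57 before, and 116 lower. Leaving out 1 motoneuron library leaves a single one, which the fit assumes to vary like the GFP-negative libraries. Without motoneuron replicate 1 the log2 fold change was 0.90 for miR-217-5p (limma adjusted p = 0.0596) and 1.47 for miR-216b-5p (limma adjusted p = 0.0746), so both calls were lost at folds close to or above those of all 4 libraries. Without motoneuron replicate 2 that of miR-216b-5p was 1.07 (limma adjusted p = 0.137). The log2 fold change of miR-216b-5p was 0.75 without GFP-negative replicate 1 and 1.79 without replicate 2. Those fits leave a single GFP-negative library, which is assumed to vary like the motoneuron libraries. The mesenchymal, muscle and sensory neuron miRNAs of the GFP-negative libraries moved with this contrast, and their part in it was not tested.

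**Figure D4:**
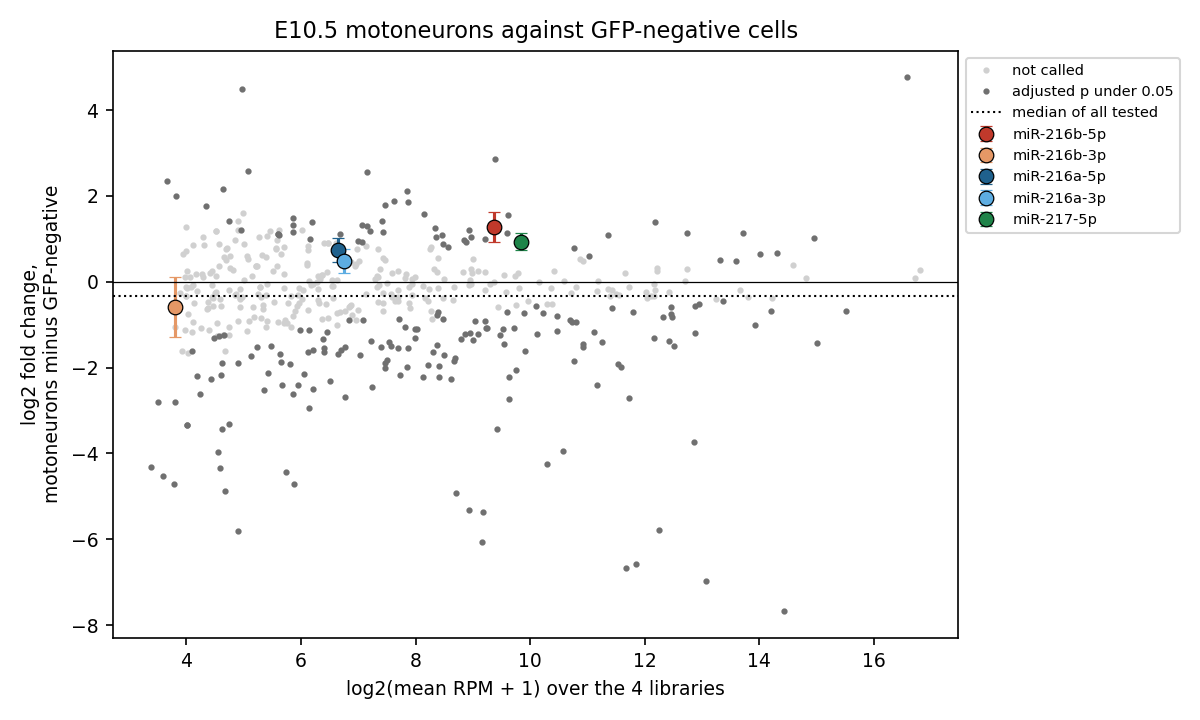
Log2 fold change of motoneurons over GFP-negative cells against mean abundance at E10.5 for the 492 miRNAs tested; coloured points are members, with bars of 1 SE, and the dotted line is the median of all tested miRNAs, -0.34. miR-216b-5p and miR-217-5p lie at 1.27 and 0.93, and miR-216b-3p lies below 0 with the widest bar of the members.

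The make-up of the cluster signal differed between the tables of the 2 stages. Taken per length over the 6 rows, miR-217-5p made up 46.6% to 54.98% of the signal in the 4 E10.5 libraries and miR-216b-5p 27.0% to 43.0%. In the E12.5 libraries miR-216b-5p made up 66.9% in motoneurons, 75.0% in V2a and 75.1% in V3, while miR-217-5p made up 19.2%, 14.5% and 9.07%. The ratio of miR-216b-5p to miR-217-5p was 0.49 and 0.79 in the GFP-negative libraries, 0.68 and 0.92 in the E10.5 motoneuron libraries, and 3.48, 5.16 and 8.28 in E12.5 motoneurons, V2a and V3. The counting interval of the ratio lay below 1 in 3 of the 4 E10.5 libraries and above 1 in all 3 E12.5 libraries. In E10.5 motoneuron replicate 2 it ran from 0.82 to 1.04, so there the order of these 2 members was not detectable at this depth. Stage and table cannot be told apart, since each table was made and scaled separately.

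The arms of Mir216a also differed between the E10.5 and E12.5 tables, and here too stage and table cannot be told apart. At E10.5 they were about level, with 3p reads over 5p reads at 1.16 and 1.25 in GFP-negative cells and 0.87 and 1.18 in motoneurons, and each counting interval held 1. At E12.5 the 3p arm was in excess, by 6.97-fold in motoneurons (5.35 to 9.20), 3.48-fold in V2a (3.19 to 3.79) and 4.32-fold in V3 (3.38 to 5.57). The V2a and motoneuron intervals did not overlap, and neither did those of V2a and any E10.5 library. The other hairpins were strongly biased to the 5p arm in every library. For Mir217, 3p reads were 0.17% to 0.69% of both arms at E10.5 and 0.25% in V2a, against 3.02% in E12.5 motoneurons and 1.52% in V3. For Mir216b, with the antisense row summed, the 3p share was 0.77% to 8.93% at E10.5 and 0.35%, 0.14% and 0% in E12.5 motoneurons, V2a and V3.

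**Figure D5:**
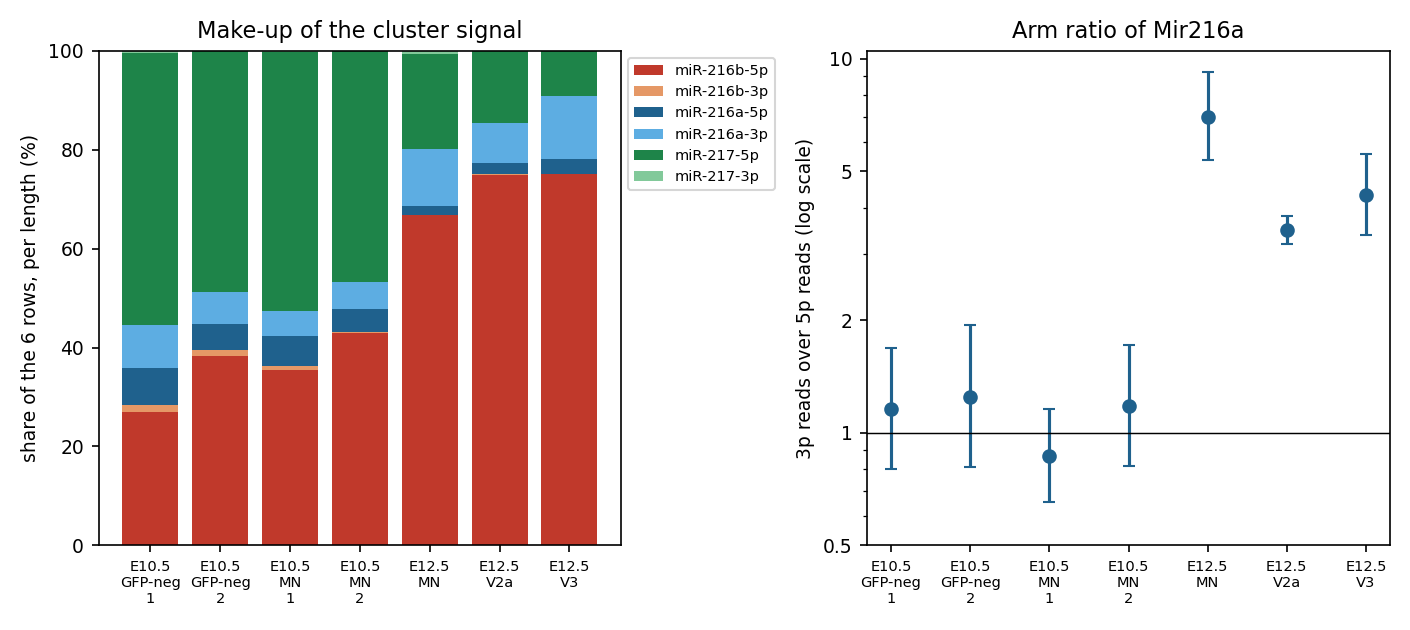
Left, share of each member in the summed signal of the 6 rows, per length, in each library (stacked bars, adding to 100%); right, reads of miR-216a-3p over reads of miR-216a-5p on a log axis, with 95% counting intervals. miR-217-5p leads in the 4 E10.5 libraries and miR-216b-5p in the 3 E12.5 libraries, and the arm ratio lies near 1 at E10.5 and between 3.48 and 6.97 at E12.5.

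Of the nearest other miRNA genes on chromosome 11, none had a row highest in V2a at E12.5, but several were hardly detected. Upstream lie Mir6372 and Mir1933, 2.54 and 7.40 Mb from Mir216b. Their rows, miR-6372 and both arms of Mir1933, stood at 0 in V2a and at most 2.25 TPM in the other E12.5 libraries. At E10.5 they held at most 4.05 RPM, too little to show whether they share a pattern. Downstream, 6.85 Mb from Mir217, lies Mir218-2, a source of the motoneuron miRNA miR-218. Its own passenger arm miR-218-2-3p stood at 17.4 TPM in E12.5 motoneurons, 0 in V2a and 0.72 in V3. miR-103-3p, partly from the next gene, Mir103-1, was at 2477 TPM in motoneurons, 2034 in V2a cells and 1519 in V3 cells, and its row shares a bundle with another.

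Other miRNAs known from the pancreas were followed with a list of 10 rows. Of these, 5 reached 10 TPM at E12.5, and 0 of the 5 were at least 4-fold higher in V2a than in motoneurons or than in V3 on the scale of TPM + 1, with medians of 0.32 and 0.33 on the log2 scale. For single comparisons the share of all 523 miRNAs was 5.74% over motoneurons and 6.12% over V3. miR-148a-3p, a pancreas-enriched miRNA whose row shares a bundle with another, was at 2142 TPM in motoneurons, 2679 in V2a cells and 2127 in V3 cells. miR-375-3p, an islet miRNA, was highest in V3, at 9.01, 38.9 and 291 TPM, and its log2 ratio of V2a over motoneurons, 1.997 on TPM + 1, lay just under 4-fold and would be above it without the pseudocount. At E10.5, 8 of the 10 were tested: 2 rose in motoneurons (miR-7a-5p and miR-7b-5p, which share reads) and 4 fell, beside 11.6% higher and 30.7% lower of all 492. Among those, miR-148a-3p fell by 1.31 and miR-375-3p by 2.53 on the log2 scale (limma adjusted p = 0.00089 and 0.0037).

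The 5 miRNAs outside the cluster whose E12.5 pattern was nearest to that of miR-216b-5p were miR-219b-3p, miR-6900-3p, miR-6997-5p, miR-3062-5p and miR-6974-5p. Likeness was the distance between the pairs of log2 ratios of V2a over motoneurons and over V3, over 3 libraries. It ran from 0.58 for miR-219b-3p to 1.10 for miR-6974-5p, beside 0.47, 0.87 and 0.97 for miR-216a-5p, miR-217-5p and miR-216a-3p. All 5 were scarce, at 11.2 to 24.5 TPM in V2a. With a pseudocount of 10 TPM none of the 5 was among the nearest, so the choice rests on low values. At E10.5, miR-219b-3p stood at 207 and 288 RPM in motoneurons and 95.4 and 86.0 in GFP-negative cells, and it shares reads with other rows. The remaining 4 stood at 24.3 RPM or less in every E10.5 library.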

How the data were processed

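The members, lists and tests were chosen with earlier results of these data known. Of the upstream tools, the submitters' processing notes name Bowtie2; for the counter, the build and the annotation, nothing is given in the sources used here. Values deposited by the authors for E10.5 are RPM, which sum to 1000000 in each library, with the authors' group means, which were not used. The E12.5 table, as the authors deposited it, names no unit and was read as FPKM: value times mature length, summed over the 1603 of 1908 rows with a RefSeq length, accounts for 98.1% to 98.8% of the reads expected. Each E12.5 library was rescaled to 1000000 (TPM). Reads were recovered from the value of 1 read, which gave the depths. In rows that share no reads, 97.3% to 100% of E10.5 values came out whole within 0.05 of a read, against 75.8% to 81.8% at E12.5, whose depths and reads are therefore approximate. Counting intervals are exact (Clopper-Pearson) at 95% and, like the floor of 3 reads, cover counting error only.

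For E10.5, limma 3.58.1 (R 4.3.3, two-sided, mean-variance trend) was run on log2(RPM + 1), which understates changes of low miRNAs, over miRNAs at 15.2 RPM (10 reads at the median depth) in 2 libraries, adjusted by Benjamini-Hochberg and called under 0.05. The fit was also run on simulated reads with a preset spread and rises as likely as falls. Falls outnumbered rises in these data, so that run does not check the p-values given here. E12.5 ratios used TPM + 1 where counted. Named miRNAs are the 6 members, miRNAs with the same seed, the 2 nearest miRNA genes on either side, 10 pancreas miRNAs and the 5 nearest E12.5 patterns. Alternatives were other pseudocounts, filters and scalings, a replicate block and leaving out each E10.5 library.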

Additional observations from a re-analysis of the deposited data

How the results depend on the processing

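At E10.5 the calls of miR-217-5p and miR-216b-5p held with other pseudocounts and scalings, and of the 5 members tested all but miR-216b-3p kept their direction under every alternative run. miR-217-3p was not tested. miR-216b-5p (1.27) missed the threshold with only all-zero rows removed (limma adjusted p = 0.0537). miR-216a-5p and miR-216a-3p passed with the median of ratios (1.07 and 0.83) and with TMM factors (1.06 and 0.82). Leaving out each library gave log2 fold changes of 0.74 to 1.11 for miR-217-5p, 0.75 to 1.79 for miR-216b-5p, 0.62 to 0.84 for miR-216a-5p and 0.38 to 0.59 for miR-216a-3p. miR-216b-3p passed the filter in 2 of these fits, with -0.73 without GFP-negative replicate 1 and 0.41, reversed, without motoneuron replicate 2. The counts of miRNAs called were then 27 to 48 higher, with the lower counts within 1.5 times. Fewer miRNAs were called higher with only all-zero rows removed (34 of 1270). More of the 492 were with the median of ratios (94, and 116 lower) or TMM factors (100, and 121 lower). The replicate block gave 67 higher and 162 lower and changed no call of a member. Deviations of same-numbered libraries had a correlation of 0.26 across miRNAs, and the labels do not say that numbers mark a shared sort.

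At E12.5, with a pseudocount of 10 TPM, 7 miRNAs were 4-fold higher in V2a than in both, 8 over motoneurons and 8 over V3. The log2 ratios of miR-216a-5p were then 2.53 and 2.46, and that of miR-217-5p over V3 was 3.78. miR-216a-3p fell under 4-fold over motoneurons (1.99), which left 3 members over both. With the median of ratios 9 miRNAs, 3 of them members, were higher than in both. The ratios over motoneurons and V3 were then 2.58 and 2.85 for miR-216b-5p, 1.88 and 2.18 for miR-216a-3p and 2.01 and 3.51 for miR-217-5p, and 2.46 over V3 for miR-216a-5p. Totals without the 5 most abundant miRNAs held 54.3% of the signal in motoneurons, 34.7% in V2a and 30.4% in V3. With these totals, 70 of 523 miRNAs were 4-fold higher over motoneurons, against 30 in the main setting. The ratios were then 3.41 and 3.12 for miR-216b-5p, 2.71 and 2.45 for miR-216a-3p and 2.84 and 3.78 for miR-217-5p, and 3.62 over motoneurons for miR-216a-5p. With only all-zero rows removed, 36, 81 and 110 of 1689 miRNAs were 4-fold higher over both, motoneurons and V3. Of those 36, 5 were members, with miR-216b-3p taken as listed. The counts were 7, 9 and 11 of 277 at 50 TPM or more. They were 3, 11 and 12 of 523 at 8-fold, where 0 members passed against both. These shifts follow from the changed settings, and which setting is nearest to the cells was not tested. With the antisense row summed, the 5p over 3p ratio of Mir216b was 20.6 and not 41.2 in E10.5 motoneuron replicate 1, and 10.2 and 17.2 and not 20.4 and 34.4 in the GFP-negative libraries, and in motoneuron replicate 2 it was 129 and not 258; summing was chosen after seeing the data. With a pseudocount of 10 TPM, 0 of the 5 nearest patterns were the same, and with miR-217-5p as the reference 4 were.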

Other observations

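On the RPM scale both tables can be set side by side, though they were made separately. The arms of Mir216a then differed in which E12.5 libraries lay outside the E10.5 range. miR-216a-5p stood at 73.3 to 133 RPM over the E10.5 libraries and at 17.8 in E12.5 motoneurons, 19.0 in V3 and 148 in V2a. Its V2a level lay just above the E10.5 range, and its motoneuron and V3 levels well below it. miR-216a-3p stood at 84.9 to 134 RPM at E10.5 and at 124, 81.98 and 516 in E12.5 motoneurons, V3 and V2a. Its motoneuron level thus lay within the E10.5 range, its V3 level just under it and its V2a level above it. miR-217-5p stood at 558 to 1223 RPM at E10.5 and at 214 in E12.5 motoneurons, 60.9 in V3 and 970 in V2a, so only its V2a level lay within the E10.5 range. miR-216b-5p stood at 262 to 1046 RPM at E10.5 and at 712, 482 and 4786 in E12.5 motoneurons, V3 and V2a, and its V2a level lay above that range. That range pools motoneurons and GFP-negative cells. The E12.5 motoneuron level of miR-216b-5p lay below both E10.5 motoneuron libraries, 795 and 1046 RPM. Stage and table cannot be told apart in these values.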
